A study of Mus musculus with 15 samples.

Results

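Skeletal muscle genes were followed in the skin of mice with sclerodermatous chronic graft-versus-host disease and of their transplanted controls. The set holds 39 genes that build the contractile apparatus, the calcium release system and the energy supply of striated muscle, together with 2 ubiquitin ligases of muscle atrophy. They were taken by symbol from the 56059 genes of the count table, of which 51276 (91.5%) could be given a symbol. Each of the 39 matched 1 gene, and all 39 were among the 18651 genes that passed the filter on low counts, Myh7 through counts of 68, 53 and 4618 in 3 libraries.

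RNA was sequenced from 15 skin libraries of transplanted mice in 4 groups, and the series as a whole concerns porcupine inhibition combined with other drugs. Syngeneic controls (n = 4) and allogeneic mice (n = 3) were gavaged daily with a 0.4% methylcellulose vehicle. Of the other allogeneic mice, 4 libraries came from animals given Wnt-C59, an inhibitor of the acyltransferase porcupine that Wnt proteins need for secretion, at 5 mg/kg, and 4 from animals given the same dose with belumosudil, an inhibitor of the kinase ROCK2, at 150 mg/kg. Dosing ran from day 21 to day 49 after transplantation in all 4 groups, so the 3 allogeneic groups share the disease model and the syngeneic group shares the transplantation. The table's columns for this last group carry a code that no label spells out. They were taken for it because it is the one labelled group left, and the series title also names ruxolitinib, so belumosudil as their second drug rests on that match. No belumosudil-alone group was analysed here, and strain, sex and age are not given in the sources used here. The labels call the libraries replicates without saying that each came from a separate mouse, and p-values measure the spread between these libraries. Libraries are named by group and number, the last group as the combination.

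Striated muscle contracts when myosin of the thick filament pulls on actin of the thin filament, after calcium released from the sarcoplasmic reticulum has freed the actin sites through troponin. Creatine kinase, glycogen breakdown and glycolysis refill the ATP that this uses, most of all in fast fibres. Beneath the dermis and fat of the mouse lies a thin sheet of such muscle, the panniculus carnosus, which moves the skin. When muscle wastes, the ligases MuRF1 and atrogin-1, encoded by Trim63 and Fbxo32, mark its proteins for degradation.

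Transcription of these genes is known to draw on a small number of sites near their starts. Because most members moved together in several of these libraries, the 250 bases before the start of 4 of them are shown. They are the leading actin, the leading myosin, muscle creatine kinase and parvalbumin, whose level parted from the others. The sequences are RefSeq's for build GRCm38.p6, printed 5′ to 3′ on the strand of the gene. Capitals mark matches, on either strand, to a CArG box (bound by serum response factor), the MEF2 motif, the E-box CAGCTG (bound by MyoD and its relatives) or the M-CAT element CATTCC (bound by TEAD factors), and no match overlapped another.
Acta1 (chr8:123894776-123895025, minus strand): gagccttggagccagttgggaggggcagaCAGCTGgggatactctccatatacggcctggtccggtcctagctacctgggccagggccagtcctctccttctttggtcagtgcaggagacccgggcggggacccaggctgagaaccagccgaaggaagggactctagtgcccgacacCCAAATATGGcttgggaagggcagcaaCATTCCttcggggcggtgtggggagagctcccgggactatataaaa
Myh4 (chr11:67237562-67237811, plus strand): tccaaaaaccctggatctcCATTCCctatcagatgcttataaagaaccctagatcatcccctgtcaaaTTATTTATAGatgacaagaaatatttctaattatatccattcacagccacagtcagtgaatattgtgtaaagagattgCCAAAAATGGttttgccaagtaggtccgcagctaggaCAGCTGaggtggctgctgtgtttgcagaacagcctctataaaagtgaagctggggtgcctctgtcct
Ckm (chr7:19410844-19411093, plus strand): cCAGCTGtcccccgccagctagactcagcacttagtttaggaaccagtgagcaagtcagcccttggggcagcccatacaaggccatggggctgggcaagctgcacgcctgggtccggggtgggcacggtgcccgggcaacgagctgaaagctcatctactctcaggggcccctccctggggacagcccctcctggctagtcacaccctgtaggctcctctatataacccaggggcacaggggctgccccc
Pvalb (chr15:78206401-78206650, minus strand): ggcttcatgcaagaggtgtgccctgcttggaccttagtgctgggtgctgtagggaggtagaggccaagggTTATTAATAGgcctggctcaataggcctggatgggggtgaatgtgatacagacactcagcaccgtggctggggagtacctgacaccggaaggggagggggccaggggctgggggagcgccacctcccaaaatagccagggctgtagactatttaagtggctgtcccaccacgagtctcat
In Acta1 the E-box began at position −221, the CArG box at −73 and the M-CAT element at −46, counted back from the first transcribed base. Myh4 held all 4 kinds, with an M-CAT element at −231, a MEF2 motif at −182, a CArG box at −104 and an E-box at −67. Ckm had an E-box at −249, and Pvalb a MEF2 motif at −180. Of the 28 members with a promoter in the RefSeq table, 14 (50.0%) held the E-box, against 12.8% of all 27025 promoters in windows of the same length. The M-CAT element stood in 9 (32.1%, against 12.6%), the MEF2 motif in 6 (21.4%, against 3.0%) and the CArG box in 3 (10.7%, against 1.4%). These are letter matches and were not linked to any value below.

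The libraries held 16258690 to 28779816 counts, with 22110 to 24283 genes detected. Vehicle and treated libraries stood apart: 31.07% to 34.39% of nonzero values were not whole numbers in the 7 vehicle libraries and 44.76% to 60.62% in the 8 treated ones. The nuclear RNA Malat1 lay between 1071 and 3501 CPM (a gene’s counts relative to the library total after TMM scaling) in vehicle libraries and between 65.05 and 135.7 CPM in treated ones. Each comparison of a treated with a vehicle group below carries this gap, and drug and library set cannot be told apart in it.

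Skeletal muscle was present by its defining genes in 14 of the 15 libraries. In combination library 5 most of them were near 0: 23 of the 39 members lay under 1 CPM, and 38 of 39 had their lowest level of all libraries there. Of 6 heart markers, Myh6 and Nppa lay under 1 CPM in every vehicle and combination library, and the others did not in either vehicle group. The 6 summed to 10.1 to 13.3 CPM in syngeneic and 15.6 to 27.8 CPM in allogeneic skin. Of the 4 tested, 2 were higher in allogeneic skin and 0 lower, against 14.6% and 15.1% of all genes. No label says which layers of skin were taken, so which muscle the RNA came from cannot be told from these values.

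The amount of muscle RNA varied widely between libraries of 1 group. The 39 members together took 1.48%, 0.844%, 0.648% and 1.36% of the counts in syngeneic libraries 1 to 4, and 1.63%, 6.0% and 2.68% in allogeneic libraries 1 to 3. In Wnt-C59 libraries 1, 2, 4 and 5 they took 2.65%, 5.53%, 6.99% and 3.04%, and in combination libraries 2, 3, 4 and 5 they took 4.46%, 1.79%, 0.377% and 0.0206%. The syngeneic values lay below all 7 values of the other vehicle group and of Wnt-C59, while combination library 2 lay above 2 of the 4 Wnt-C59 libraries and combination library 5 far below every other library. The highest share was 2.28 times the lowest among syngeneic libraries, 3.68 times among allogeneic ones, 2.64 times under Wnt-C59 and 217 times under the combination. In bulk tissue such as this, fewer muscle fibres in the piece of skin and less RNA per fibre cannot be told apart.

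**Figure D1:**
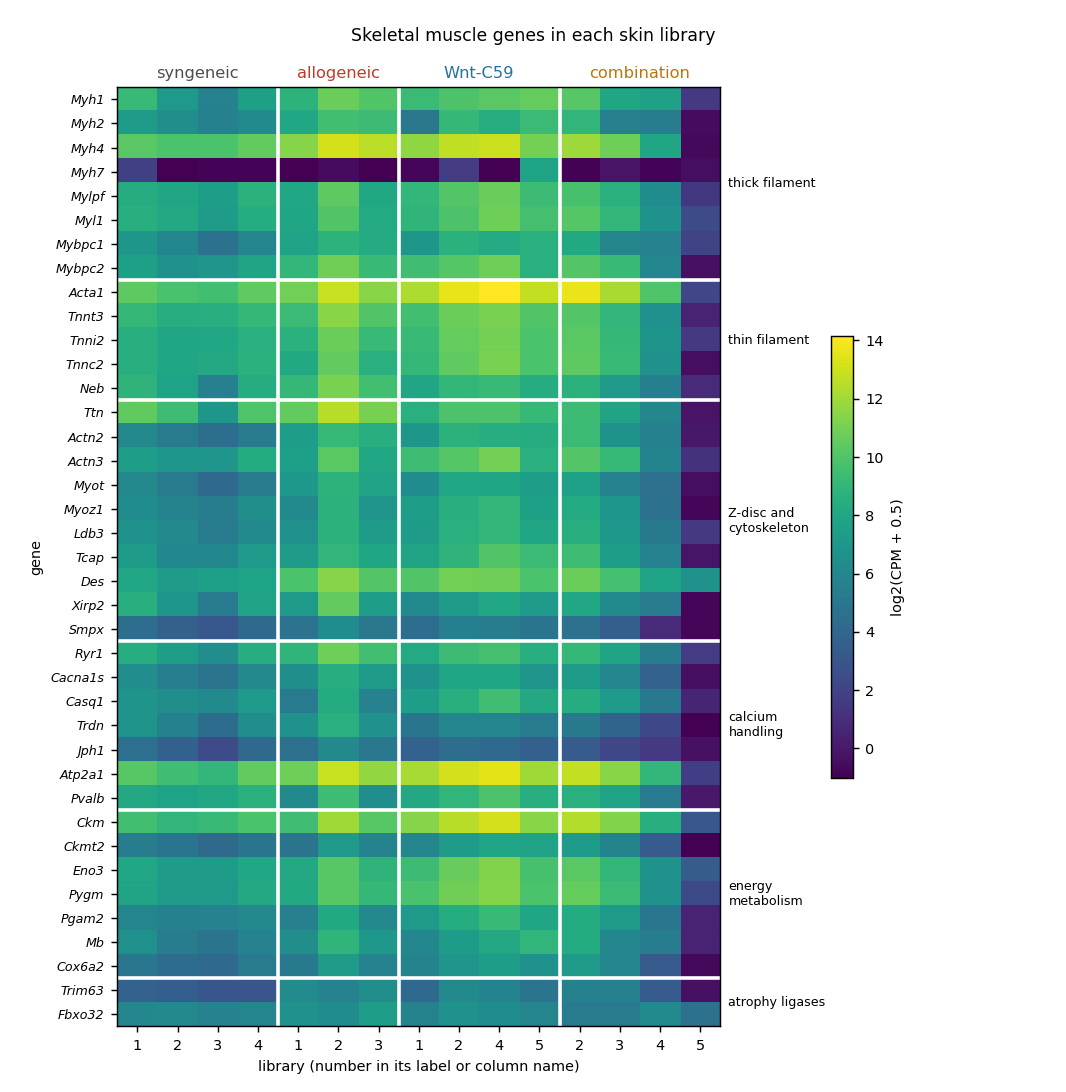
Level of each of the 39 members (rows, by role) in each of the 15 libraries (columns, by group) as log2(CPM + 0.5), with brighter colours for higher levels. Combination library 5 is dark for nearly all members except Des and Fbxo32, and allogeneic library 2 and Wnt-C59 library 4 are the brightest.

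In some libraries most members stood high or low together. Allogeneic library 2 was the highest of its group for 37 of 39 members, combination library 2 for 36 and Wnt-C59 library 4 for 25. Combination library 5 was the lowest of its group for 38. In syngeneic skin the highest level was split between library 1 (22 members) and library 4 (16). Among all 15 libraries, the highest level fell in Wnt-C59 library 4 for 18 members and in allogeneic library 2 for 16. The median member stood at 762 CPM in allogeneic library 2 and at 0.859 CPM in combination library 5.

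Per kilobase of the longest annotated transcript, Acta1, skeletal alpha-actin, was the most abundant member in each of the 4 groups, with mean levels of 753, 2840, 7330 and 3230 CPM per kilobase in syngeneic, allogeneic, Wnt-C59 and combination skin. Behind it in syngeneic skin came genes of the fast troponin complex and the fast regulatory light chain: Tnnc2 (468 CPM per kilobase), Tnnt3 (411), Mylpf (388) and Tnni2 (352). Pvalb, the calcium buffer of fast fibres, ranked 6th there and 13th or 14th in the other groups. In syngeneic, allogeneic and combination skin the lowest rank was that of Myh7, the slow myosin heavy chain.

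Allogeneic disease was compared with the syngeneic control first. Des, Trim63 and Fbxo32 rose in allogeneic skin, and the other 36 members did not pass the test. Over all 18651 genes 29.8% passed (14.6% higher, 15.1% lower), so 3 of 39 is below the background. Fitted log2 fold changes were above 0 for 37 of 39 members (all genes: 45.7%), with a median of 1.67 (all genes: −0.07). Levels in the 3 allogeneic libraries lay entirely above those in the 4 syngeneic ones for 22 members, against 16.7% of all genes, and entirely below for 0, against 19.9%. When the 7 vehicle libraries were fitted alone, which leaves the treated libraries out of the estimate of spread, 21 of the 38 members then tested rose and 0 fell, against 14.1% of all genes higher and 13.4% lower (27.5% in all). In the fit of all groups without Wnt-C59 library 5 and combination library 5, chosen after the data were seen, 10 rose (Myh4, Mybpc1, Mybpc2, Actn2, Myot, Des, Jph1, Atp2a1, Trim63 and Fbxo32), against 14.8% of all genes. Across 38 members without Myh7, Spearman's rho between the log2 fold change and transcript length was 0.47, and with GC content 0.15, as a description of genes that share their libraries.

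Des, the intermediate filament that ties Z-discs to each other, stood at 256.7, 156.8, 186.3 and 223.5 CPM in syngeneic libraries 1 to 4 and at 908.3, 2727 and 1093 CPM in allogeneic libraries 1 to 3. The lowest allogeneic library was above the highest syngeneic one by a wide margin. The log2 fold change was 2.94 ± 0.74 (SE, 7.66-fold, adjusted p = 0.01 by edgeR's quasi-likelihood test), and the call held without any single vehicle library (adjusted p from 0.014 to 0.039). Des is also made in smooth muscle. The 8 smooth muscle markers summed to 528 to 895 CPM in syngeneic and 481 to 895 CPM in allogeneic skin. None was under 1 CPM throughout. Of these 8, 1 was higher and 2 were lower, against 14.6% and 15.1% of all genes. The part of these markers in the Des change was not tested.

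Trim63 lay at 13.21, 10.9, 7.919 and 7.452 CPM in syngeneic libraries and at 79.34, 52.27 and 88.57 CPM in allogeneic ones. Its log2 fold change was 2.89 ± 1.00 (SE, 7.43-fold, adjusted p = 0.047). Fbxo32 lay at 64.91, 69.79, 51.82 and 58.95 CPM in syngeneic libraries and at 104.4, 77.78 and 179.5 CPM in allogeneic ones, a log2 fold change of 0.97 ± 0.34 (SE, 1.96-fold, adjusted p = 0.043). Neither gene overlapped between the groups. Trim63 lost its call without any single vehicle library (adjusted p 0.06 to 0.1) and Fbxo32 without any of them but allogeneic library 2 (up to 0.22), while in the fit of the 7 vehicle libraries Trim63 reached an adjusted p of 6.8e-05 and Fbxo32 of 0.02.

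In the allogeneic group, the order of the libraries set both ligases apart from the rest of the muscle genes. Allogeneic library 2, the highest for 37 members, was the lowest of its group for Trim63 and for Fbxo32. Under Wnt-C59 both were among the 32 members lowest in library 1, and in combination library 5 Trim63 sank with most members. In combination library 5, Fbxo32 kept 25.78 CPM and Des 111.6 CPM, where Ckm was at 8.097 CPM and Trim63 at 0.3166 CPM. Smooth muscle markers in that library summed to 873 CPM, the lowest of its group, which reached 1340 CPM, and their part in the Des level was not tested.

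Among thick filament genes, Myh4, the fastest myosin heavy chain, stood at 1251, 931.6, 943.7 and 1472 CPM in syngeneic and at 2701, 9125 and 6212 CPM in allogeneic libraries. The groups did not overlap, yet the test across all groups gave 2.39 ± 1.47 (SE, adjusted p = 0.25), against 2.39 ± 0.42 (SE, adjusted p = 0.0026) in the fit of the vehicle libraries. Myh2, the heavy chain of oxidative fast fibres, gave 2.57 ± 1.45 (SE, adjusted p = 0.2) and Myh1, the intermediate one, 2.08 ± 1.23 (SE, adjusted p = 0.23) across all groups. None of the 8 thick filament genes passed there, and 4 rose among the vehicle libraries alone: Myh2, Myh4 and the myosin-binding proteins Mybpc1 and Mybpc2. The light chains Mylpf and Myl1 overlapped between the groups.

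In the thin filament, Acta1 was at 1365, 876.8, 741.0 and 1370 CPM in syngeneic and at 1911, 7622 and 2793 CPM in allogeneic libraries. All 3 allogeneic values were higher, and the log2 fold change was 1.92 ± 1.33 (SE, adjusted p = 0.31) across all groups and 1.92 ± 0.48 (SE, adjusted p = 0.014) among vehicle libraries. None of the 5 thin filament genes passed across all groups, and 3 rose among vehicle libraries: Acta1 and the fast troponins Tnnt3 and Tnni2. Tnnc2, the calcium-binding troponin of fast fibres, overlapped between the groups.

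Of the 10 genes of the Z-disc and the cytoskeleton, Des rose across all groups and 6 rose among vehicle libraries, with the crosslinker Actn2 (log2 fold change 3.16 ± 0.47 SE, adjusted p = 0.0015) and the Z-disc protein Myot (2.73 ± 0.52 SE, adjusted p = 0.0063) nearest to Des. Ttn, the giant spring of the sarcomere, was at 1370, 689.5, 128.1 and 1000 CPM in syngeneic and 1431, 5911 and 2084 CPM in allogeneic libraries. The groups came close without overlapping, and syngeneic library 3 was far below its group. The log2 fold change of Ttn was 1.98 ± 1.33 (SE, adjusted p = 0.29) across all groups.

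Calcium handling genes gave no call across all groups and 3 of 7 among vehicle libraries: the release channel Ryr1, its voltage sensor Cacna1s and the calcium pump Atp2a1. Atp2a1 stood at 1207, 726.1, 530.6 and 1449 CPM in syngeneic and 1807, 7641 and 3297 CPM in allogeneic libraries, 2.12 ± 1.32 (SE, adjusted p = 0.25) across all groups and 2.12 ± 0.52 (SE, adjusted p = 0.013) among vehicle libraries. Pvalb and Casq1, the calcium store of the reticulum, did not share this pattern. Pvalb was at 280.1, 221.0, 255.5 and 411.2 CPM in syngeneic and 73.02, 700.5 and 85.36 CPM in allogeneic libraries. Casq1 was at 115.2, 87.56, 73.65 and 138.3 CPM in syngeneic and 38.03, 312.8 and 52.32 CPM in allogeneic libraries. For both genes the allogeneic values lay on both sides of the syngeneic ones.

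Energy genes likewise gave no call across all groups. Ckm, muscle creatine kinase, was at 760.4, 495.1, 601.7 and 944.3 CPM in syngeneic and 712.8, 4018 and 1195 CPM in allogeneic libraries, which overlap, with a log2 fold change of 1.50 ± 1.24 (SE, adjusted p = 0.39). Mb, the oxygen store myoglobin, gave 2.11 ± 1.22 (SE, adjusted p = 0.22). Among vehicle libraries 3 of the 7 rose, which were the muscle enolase Eno3, the glycogen phosphorylase Pygm and Mb.

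**Figure D2:**
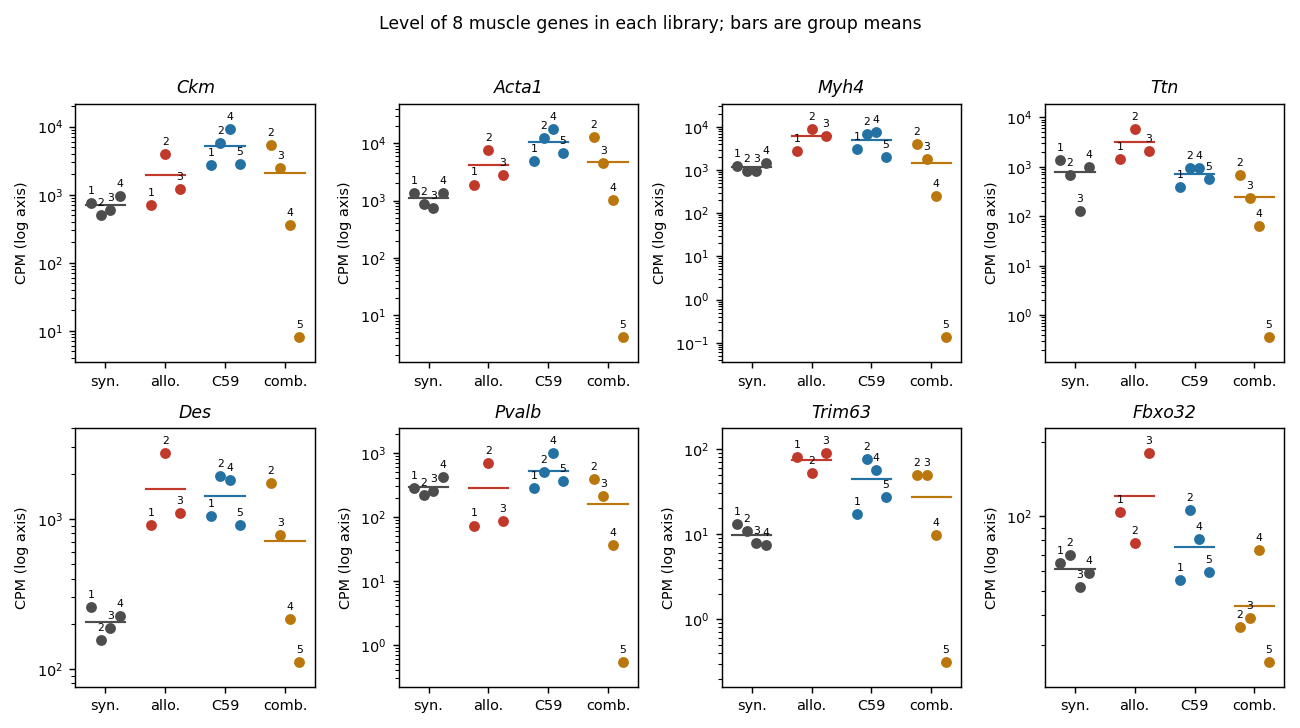
CPM on a log axis for 8 members in each library, numbered, with group means as bars (syn. = syngeneic, allo. = allogeneic, C59 = Wnt-C59, comb. = combination). Des and Trim63 are higher in all 3 allogeneic libraries than in any syngeneic one, and combination library 5 is the lowest for each of the 8 genes.

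Markers of other skin cells were set beside the muscle genes. In this comparison 14.6% of all genes were higher and 15.1% lower. The 10 adipocyte markers summed to 1050 to 2190 CPM in syngeneic and 449 to 1030 CPM in allogeneic skin. All 10 had log2 fold changes below 0, and 2 were lower by the test, near the share of all genes. The 8 dermal fibroblast markers summed to 4480 to 10500 CPM and 1570 to 2800 CPM, with 5 of 8 lower. The 8 keratinocyte markers summed to 11900 to 21500 CPM and 21700 to 35800 CPM, without overlap, with 2 of 8 higher and 0 lower. Log2 fold changes were below 0 for 2 of these 8, down to −1.53. None of these markers was under 1 CPM throughout either group, and their part in the muscle share was not tested.

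To see whether the members moved in step, each gene was refitted with the mean log level of 14 other sarcomere genes as a covariate, chosen after the data were seen. At a like level of those 14 genes, Des was higher in allogeneic skin and 14 members were lower, against 11.6% of all genes higher and 10.6% lower (22.2% in all). The 14 lower members were spread over 5 of the 6 roles: Mylpf and Myl1, the 3 fast troponins Tnnt3, Tnni2 and Tnnc2, the Z-disc genes Myoz1, Ldb3 and Tcap, the calcium buffers Casq1 and Pvalb, and the energy genes Ckm, Ckmt2, Pgam2 and Cox6a2. Neither atrophy ligase passed. The largest difference among them was that of Pvalb at −3.55 ± 0.63 (log2 ± SE, adjusted p = 0.0016), followed by Casq1 at −2.69 ± 0.40 (SE, adjusted p = 0.00041), and Des was at 1.63 ± 0.32 (SE, adjusted p = 0.0023). The count depends on the libraries that fix the covariate: with the 7 vehicle libraries alone 3 members passed (Casq1 and Xirp2 lower, Trim63 higher), against 10.7% of all genes. Without combination library 5 or without allogeneic library 3 it was 8 (14.0% and 14.1% of all genes), and with 14 muscle energy enzymes as the covariate 4 (Casq1, Pvalb and Myl1 lower, Des higher), against 24.3%. Casq1 passed in each of these fits.

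Ckm was itself among the 14 lower members of the covariate fit (−1.69 ± 0.45, log2 ± SE, adjusted p = 0.014), so ratios to Ckm follow another scale. A reading without a model is the log2 ratio of counts to Ckm in the same library. For Pvalb it was −1.44, −1.16, −1.24 and −1.20 in syngeneic libraries and −3.29, −2.52 and −3.81 in allogeneic ones. The 8 treated libraries lay from −3.84 to −2.99, with combination library 5 among them. Every allogeneic library, with or without drug, was below every syngeneic one.

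For Casq1 the ratio was −2.72, −2.50, −3.03 and −2.77 in syngeneic libraries and −4.23, −3.68 and −4.51 in allogeneic ones, again without overlap. Des ran the other way, from −2.08 to −1.57 in syngeneic libraries and at 0.35, −0.56 and −0.13 in allogeneic ones. Wnt-C59 libraries, at −1.38, −1.57, −2.37 and −1.64, sat around the syngeneic values, and combination library 5 reached 3.78. Of the 38 members other than Ckm, 8 lay wholly higher against Ckm in allogeneic than in syngeneic skin (Myh4, Mybpc2, Acta1, Actn2, Myot, Des, Ryr1 and Atp2a1) against 1.8% of all genes, and 3 wholly lower (Tnnc2, Casq1 and Pvalb), against 25.4% of all genes. The 3 are a smaller share of the members than the background. Both background shares are shaped by Ckm itself, whose fitted log2 fold change was 1.5, not called. A gene that did not rise with Ckm has a lower ratio to it. The share over all genes therefore does not set these members apart from other muscle genes. Of the 8, Myh4, Mybpc2, Acta1, Ryr1 and Atp2a1 had log2 fold changes below 0 in the covariate fit, none of them called.

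**Figure D3:**
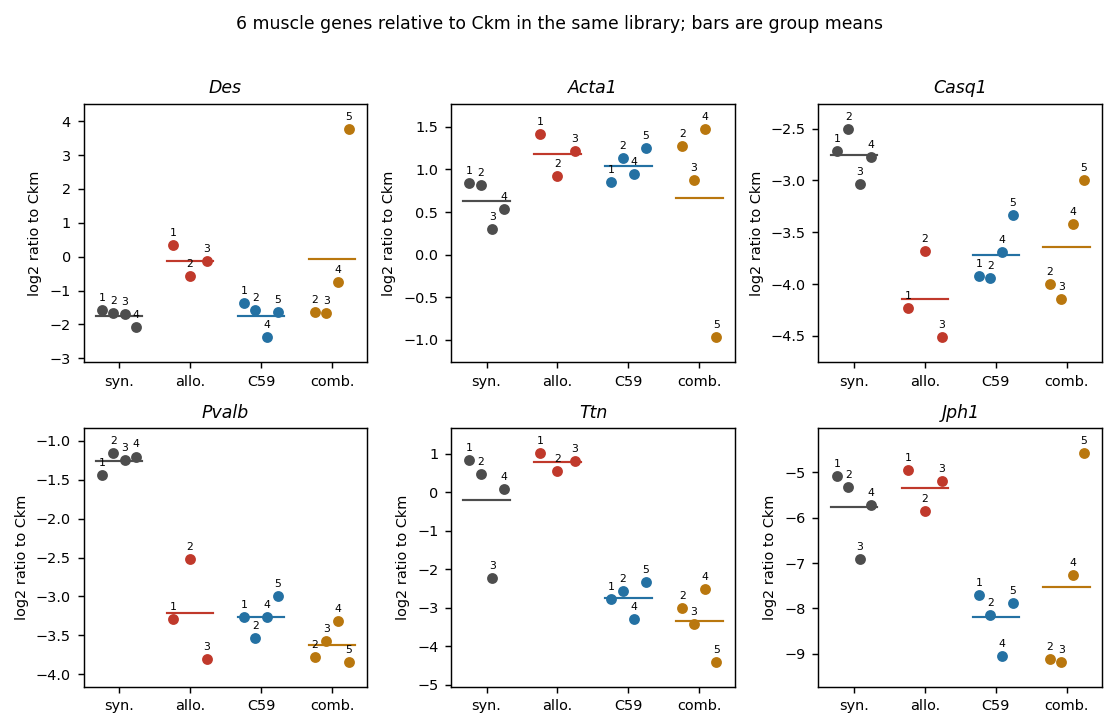
Log2 ratio of counts (each plus 0.5) to Ckm counts in the same library for 6 members, by group, with library numbers and group means as bars. Pvalb and Casq1 are lower and Des is higher against Ckm in all 3 allogeneic libraries than in any syngeneic one, and Ttn is below −2 in all 8 treated libraries.

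**Figure D4:**
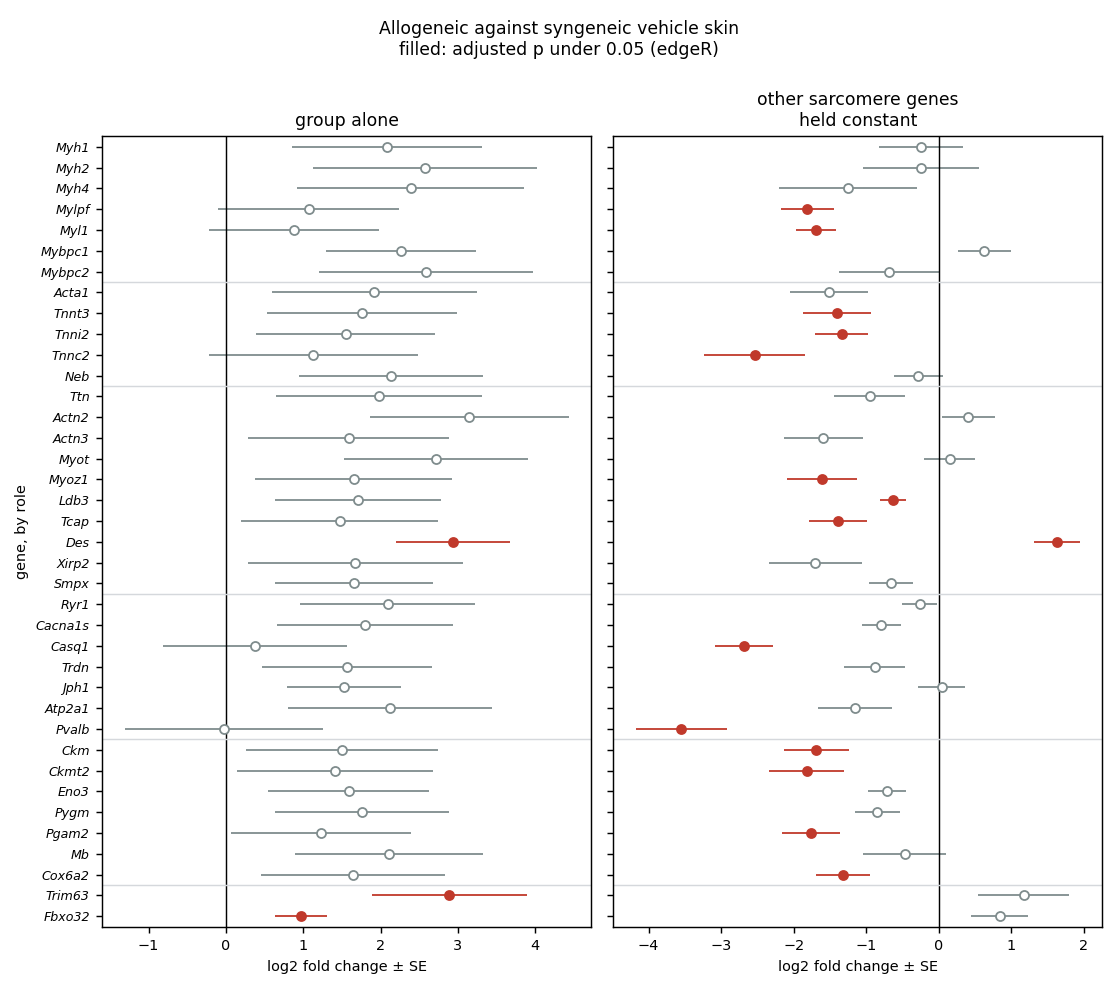
Log2 fold change ± SE of 38 members (rows, by role, Myh7 left out) between allogeneic and syngeneic skin, from the fit on group alone (left) and with 14 other sarcomere genes held constant (right). Filled points passed an adjusted p of 0.05: 3 on the left, all above 0, and 15 on the right, of which Des is the one above 0.

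Wnt-C59 was compared with vehicle among allogeneic mice to ask what porcupine inhibition did to these genes. Of 39 members, Myh7 passed and 0 fell, where 50.8% of all genes passed (24.6% higher, 26.2% lower). Myh7 counts were 0, 3 and 0 in the allogeneic and 2, 53, 0 and 4618 in the Wnt-C59 libraries, and the adjusted p was 0.032. Without Wnt-C59 library 5 Myh7 did not pass the filter, and without Wnt-C59 library 2, allogeneic library 1 or allogeneic library 3 it was not called either. Leaving out allogeneic library 2 gave 1 call, a lower Fbxo32. The remaining log2 fold changes were scattered around 0, with 22 of 39 above 0 (all genes: 49.9%) and a median of 0.11 (all genes: 0.0). The 7 energy genes were all above 0, with a median of 1.12 and none passing.

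Ckm stood at 2706, 5752, 9357 and 2847 CPM under Wnt-C59, partly above the allogeneic range, and Acta1 at 4889, 12580 and 18110 CPM in libraries 1, 2 and 4 and 6793 CPM in library 5. Des, at 1036, 1939, 1804 and 914.7 CPM, lay within the allogeneic range. Trim63 (17.32, 75.93, 56.45 and 27.52 CPM) and Fbxo32 (55.15, 106.1, 80.72 and 59.69 CPM) overlapped with their allogeneic levels. Levels wholly below the allogeneic libraries were found for 3 members, against 27.1% of all genes, and wholly above for 0, against 26.4%: the 3 were Ttn, the reticulum anchor Trdn and the junction protein Jph1. With these 7 libraries fitted alone, those 3 and the thin filament ruler Neb fell and 0 rose, against 27.5% of all genes lower and 25.2% higher (52.7% in all). Several markers of other cells were higher than in the allogeneic vehicle, with 7 of 8 smooth muscle markers (summing to 995 to 1510 CPM), 9 of 10 adipocyte markers (1180 to 3610 CPM) and 7 of 8 fibroblast markers (4030 to 7600 CPM) passing. The keratinocyte markers were mixed, with 2 of 8 higher and 2 lower. For these marker counts the shares of all genes were 24.6% higher and 26.2% lower. For all 4 lists, their part in the muscle values was not tested.

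Wnt-C59 with belumosudil was compared with the same vehicle group, so that both treated comparisons share their control libraries. Against vehicle, Ttn, Trdn, Jph1 and Fbxo32 fell and 0 members rose, where 54.5% of all genes passed (27.4% lower, 27.1% higher). Log2 fold changes were below 0 for 36 of 39, with a median of −0.97 (all genes: 0.01). Levels wholly below the allogeneic ones were seen for 7 members (Neb, Ttn, Smpx, Trdn, Jph1, Trim63 and Fbxo32), against 26.4% of all genes, and wholly above for 0, against 25.6%. Markers of other cells differed as well: 10 of 10 adipocyte, 7 of 8 fibroblast and 5 of 8 smooth muscle markers were higher and 1 smooth muscle marker lower, with 1 of 8 keratinocyte markers higher and 2 lower, and their part was not tested. With these 7 libraries fitted alone, Jph1 and Fbxo32 fell, against 25.1% of all genes lower and 24.6% higher (49.7% in all).

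Fbxo32 stood at 35.73, 38.62, 72.74 and 25.78 CPM in combination libraries 2 to 5, each below the lowest allogeneic library at 77.78 CPM. It fell by 1.48 ± 0.34 on the log2 scale (SE, adjusted p = 0.0022). Jph1, which holds the reticulum close to the cell membrane, stood at 9.659, 4.232, 2.317 and 0.3166 CPM, against 23.27, 69.15 and 32.53 CPM in allogeneic skin, and fell by 3.32 ± 0.78 (log2, SE, adjusted p = 0.0031).

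Ttn stood at 672.3, 230.0, 63.69 and 0.3619 CPM in combination libraries and fell by 3.70 ± 1.40 (log2, SE, adjusted p = 0.041). Trdn, at 34.21, 14.0, 4.295 and 0 CPM, gave −3.91 ± 1.18 (log2, SE, adjusted p = 0.014), a fitted value that its zero in library 5 enters. All 4 combination libraries lay below the allogeneic ones for both genes, and Trdn was at 104.9, 390.6 and 100.9 CPM in the latter. Without combination library 2 the count of members that fell was 11 (26.6% of all genes), and without allogeneic library 2 it was 2 (Jph1 and Fbxo32, against 25.5%). With GC and length trends taken out, Jph1 and Des fell (against 18.1%), and Ttn, Trdn and Fbxo32 no longer passed (adjusted p 0.18, 0.16 and 0.18).

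Longer members had the lower log2 fold changes in treated skin set against the allogeneic vehicle. Across the 38 members without Myh7, Spearman's rho between log2 fold change and transcript length was −0.63 for Wnt-C59 and −0.59 for the combination against the allogeneic vehicle, and rho with GC content was 0.49 and 0.53. Against the syngeneic vehicle rho with length was −0.27 and −0.3, and with GC content 0.65 and 0.67. These describe genes, which are not independent replicates and which share the libraries, and both comparisons share the vehicle libraries. The members over 10 kilobases are Neb, Ttn, Xirp2 and Ryr1. For Ttn the log2 ratio to Ckm was 0.85, 0.48, −2.23 and 0.08 in syngeneic and 1.01, 0.56 and 0.80 in allogeneic libraries, and it lay between −4.40 and −2.34 in all 8 treated libraries. Syngeneic library 3 was just above the highest treated library, and it had the least Malat1 of the vehicle libraries (1071 CPM). This is a single library, and a relation between Malat1 and the Ttn ratio was not tested. Between the combination and Wnt-C59, both from treated libraries, rho with length was −0.03. The cause of the length trend was not tested.

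The addition of belumosudil to Wnt-C59 was tested within the treated libraries, both groups lying on the same side of the gap between library sets. None of the 39 members passed with edgeR, and 0.231% of all genes did (0.102% higher, 0.129% lower). Nor did any with these 8 libraries fitted alone (0.0183% of all genes higher, 0.0914% lower, 0.11% in all). All 39 log2 fold changes were below 0, with a median of −1.42 (all genes: −0.01; 49.0% of all genes above 0), and 3 members had an unadjusted p under 0.05. DESeq2 called 1 member, Jph1, and limma-voom 0, without a share of all genes for either fit. Ckm stood at 5408, 2470, 361.3 and 8.097 CPM in combination libraries 2 to 5, so that library 2 lay inside the Wnt-C59 range and the other 3 below it. The log2 fold change of Ckm was −1.33 ± 1.17 (SE, adjusted p = 0.54), that of Acta1 −1.18 ± 1.25 (SE, adjusted p = 0.62) and that of Des −1.0 ± 0.67 (SE, adjusted p = 0.41).

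Jph1 was the one member whose combination libraries lay wholly below the Wnt-C59 libraries (13.02, 20.38, 17.6 and 12.07 CPM), against 7.28% of all genes (5.81% wholly above), with −1.92 ± 0.72 (log2, SE, adjusted p = 0.16). At a like level of the 14 other sarcomere genes, 0 members passed (0.0483% of all genes, 0.0268% higher and 0.0214% lower), with a median of −0.22 and 2 at an unadjusted p under 0.05. Relative to Ckm no member was wholly higher or lower, where 3.09% and 0.0107% of all genes were. The muscle share of counts averaged 4.55% ± 2.07 (SD, n = 4) under Wnt-C59 and 1.66% ± 2.02 (SD, n = 4) under the combination, with overlapping ranges. Adipocyte markers summed to 1180 to 3610 CPM under Wnt-C59 and 2700 to 3600 CPM in the combination.

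Treated allogeneic skin was also set against the syngeneic control. Under Wnt-C59, Myh7, Des, Eno3 and Pygm rose and 0 members fell, where 53.1% of all genes passed (26.0% higher, 27.0% lower). The levels of 27 members lay wholly above the syngeneic ones, against 24.6% of all genes, and 0 wholly below, against 26.0%, and the median log2 fold change was 2.14 (all genes: 0.04). Des gave 2.79 ± 0.71 (SE, 6.92-fold, adjusted p = 0.0056), and Pygm, at 872.6, 1870.0, 2565 and 909.5 CPM against 141.3 to 276.6 CPM, gave 2.98 ± 1.13 (SE, 7.89-fold, adjusted p = 0.042). Eno3 gave 2.70 ± 1.02 (SE, 6.51-fold, adjusted p = 0.042), while Myh7 (adjusted p = 0.04) was again not called without library 5. Fitted on these 8 libraries alone, 29 of 38 members rose, against 28.4% of all genes higher and 29.3% lower (57.7% in all), and without Wnt-C59 library 5 and combination library 5 it was 23, against 24.4%. With a single library left out, Des was the 1 member called without any syngeneic library or without Wnt-C59 library 2 or 5, and without Wnt-C59 library 4 it was Des and Myh7.

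Under the combination, Des alone rose (log2 fold change 1.79 ± 0.69 SE, 3.45-fold, adjusted p = 0.042), where 54.1% of all genes passed (26.9% higher, 27.2% lower). No member's libraries were wholly above or below the syngeneic ones, against 23.7% and 23.8% of all genes. Without combination library 5, 7 members rose: Des, Trim63, Ckm, Atp2a1, Acta1, Pygm and Actn2, a share below the 27.3% of all genes higher in that fit. Des was not called without any one of the syngeneic libraries, nor without combination library 2 or 3 (adjusted p up to 0.24), and Jph1 or Fbxo32 fell without syngeneic library 3, combination library 2 (with Trdn) or combination library 4. With these 8 libraries fitted alone 0 members passed, against 27.4% of all genes higher and 26.3% lower (53.7% in all).

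Fibre type was read from the 4 adult myosin heavy chains, whose counts can be shared out within a library. Myh4 made up 79.0% ± 12.3 (SD, n = 4) of them in syngeneic and 78.8% ± 0.405 (SD, n = 3) in allogeneic skin, 73.3% ± 18.3 (SD, n = 4) under Wnt-C59 and 52.7% ± 35.1 (SD, n = 4) under the combination. The syngeneic shares of Myh4 were 61.7%, 79.7%, 90.2% and 84.4%, and the allogeneic ones 79.3%, 78.7% and 78.5%, in the middle of that range. Myh1 took most of the rest, at 30.2%, 12.6%, 4.91% and 11.2% in syngeneic and 13.1%, 14.7% and 13.1% in allogeneic libraries.

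The share of Myh2, the fast oxidative isoform, was 6.24% ± 1.89 (SD, n = 4), 7.56% ± 0.959 (SD, n = 3), 6.45% ± 5.96 (SD, n = 4) and 6.43% ± 2.97 (SD, n = 4) in syngeneic, allogeneic, Wnt-C59 and combination skin. Allogeneic exceeded syngeneic skin by 1.31 points, and two-sided exact permutation tests over libraries gave p = 0.4 here and p from 0.74 to 1.0 in the other 5 comparisons, all 1.0 after adjustment over the 6. With 3 against 4 libraries the smallest p such a test can give is 0.057, and with 4 against 4 it is 0.029.

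Single libraries departed from the fast pattern. In Wnt-C59 library 5, Myh4 was at 45.8% of the myosin counts, with Myh1 at 34.5%, Myh2 at 14.7% and Myh7 at 5.06%, and Myh7 stood at 219.5 CPM against at most 3.119 CPM in any other library. The slow troponins Tnnt1 (92.2 CPM), Tnni1 (46.53 CPM) and Tnnc1 (34.46 CPM), the slow light chains Myl2 (46.34 CPM) and Myl3 (32.84 CPM), and the cardiac heavy chain Myh6 (32.22 CPM) were all high there. Elsewhere these 6 genes reached at most 10.99 CPM, for Tnnt1 in allogeneic library 3. Of the 6 heart markers, Nppa, Ryr2 and Nppb stayed under 1 CPM in each Wnt-C59 library, and Myh6, Tnni3 and Tnnt2 did not. The 6 heart markers summed to 12.1 to 41.5 CPM under Wnt-C59, with a median of 12.5 CPM. Combination library 5 held just 63 myosin counts, of which 51 were Myh1 (81.0%, exact 95% interval 69.1% to 89.8%, counting error only) and 3 were Myh4. Combination library 4, with 8731 myosin counts, had 50.3% Myh4 and 41.3% Myh1.

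**Figure D5:**
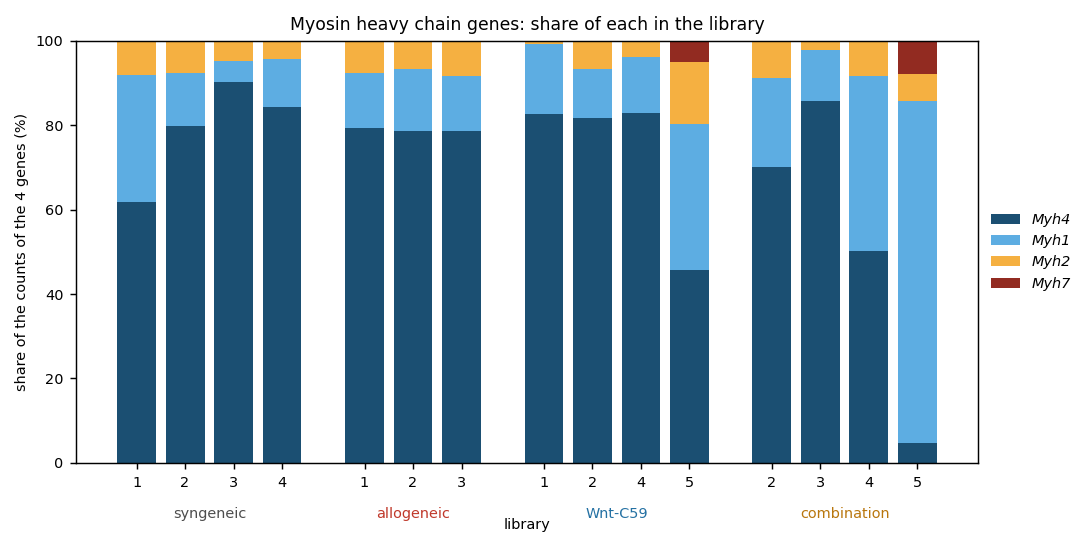
Share (%) of Myh4, Myh1, Myh2 and Myh7 in the summed counts of the 4 genes, 1 bar per library, grouped by treatment. Myh4 leads in all vehicle libraries, Myh7 is visible in Wnt-C59 library 5 and in combination library 5, and the latter bar rests on 63 counts.

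Further muscle genes, from lists of related function, gave the wider picture for allogeneic against syngeneic skin. The background for each list below is 14.6% of all genes higher and 15.1% lower across all groups. Among vehicle libraries alone it is 14.1% higher and 13.4% lower. All 14 other sarcomere genes had log2 fold changes above 0 (median 2.18), and 1 rose: Lmod2, which lengthens thin filaments (2.82 ± 0.85 SE, adjusted p = 0.025). With the vehicle libraries fitted alone 11 of the 14 rose. Of the 14 muscle energy enzymes all were above 0 (median 1.25) and 3 rose, led by the glycogen synthase Gys1 (1.85 ± 0.43 SE, adjusted p = 0.0058) and the aldolase Aldoa (1.68 ± 0.48 SE, adjusted p = 0.017), against 7 among vehicle libraries alone. Aldoa and Gys1 are made in many cell types, and Aldoa kept 1434 CPM in combination library 5.

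Of 9 genes of the neuromuscular junction tested, 3 rose and 0 fell (median 2.07), and 6 rose among vehicle libraries alone. Musk, the receptor kinase that gathers acetylcholine receptors, was at 0.8716, 0.4638, 0.2289 and 0.6173 CPM in syngeneic and at 3.037, 3.952 and 3.552 CPM in allogeneic libraries, a log2 fold change of 2.67 ± 0.71 (SE, adjusted p = 0.011). Chrnb1, a subunit of that receptor, gave 1.38 ± 0.41 (SE, adjusted p = 0.02). Musk was low in all 8 treated libraries, at most 0.5043 CPM, and fell by 4.00 ± 0.78 under Wnt-C59 (SE, adjusted p = 0.00071) and by 4.30 ± 0.78 under the combination (log2, SE, adjusted p = 0.00038) against the same vehicle libraries.

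Of 11 genes of the atrophy programme beyond both ligases, 3 rose: the mitophagy receptor Bnip3 (2.43 ± 0.33 SE, adjusted p = 0.00012), the lysosomal protease Ctsl (0.82 ± 0.25 SE, adjusted p = 0.022) and the autophagy gene Gabarapl1. Bnip3 and Fbxo30 fell in both treated groups against the vehicle (Bnip3 by 1.47 ± 0.32 under Wnt-C59 and by 2.02 ± 0.32 under the combination, adjusted p = 0.0017 and 0.00015). Of the 11 genes, 2 fell and 1 rose in each treated group, where 26.2% and 27.4% of all genes were lower. These genes are active in many cell types of skin, as background knowledge.

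The dystrophin complex ties the cytoskeleton to the matrix. Of 10 genes of this complex and of membrane repair, Sgcd, Dag1 and Dmd fell and 0 rose under Wnt-C59 against vehicle, and the same 3 genes fell under the combination, which shares the vehicle libraries. Over all genes 26.2% were lower under Wnt-C59 and 27.4% under the combination, so 3 of 10 is near the background. Of 9 slow fibre genes tested, Tpm3 (1.33 ± 0.26 SE, adjusted p = 0.0018) and Atp2a2 (0.63 ± 0.22 SE, adjusted p = 0.043) rose in allogeneic skin, both of which other cells make as well, and 4 of 8 rose among vehicle libraries alone. None of the 8 myogenic regulators and satellite cell genes tested passed in allogeneic skin with edgeR, and 5 had an unadjusted p under 0.05. The fit of vehicle libraries alone called 5 higher. DESeq2 called 4 higher and limma-voom 2, counts that have no share of all genes beside them and so lack a background. Of the 8 log2 fold changes 7 were above 0 (median 2.37). Pax7, the satellite cell factor, stayed under 1 CPM in every library.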

How the data were processed

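Skin RNA of 15 mouse libraries in 4 groups was analysed from 1 deposited table of estimated counts per gene, unscaled, under Ensembl identifiers per the file headers. FastQC, Trim Galore, HISAT2, featureCounts and build GRCm39 are named per the submitters' processing notes, without versions. Which tool wrote the table and whether libraries were stranded are not given in the sources used here. Vehicle columns name group and number. Treated libraries are named by their column numbers, not those of the sample titles, and the combination columns carry a code that no label spells out and were assigned as the one group left. The series title also names ruxolitinib, so this match is not certain.

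Symbols, GC content and longest transcript length came from GENCODE M21 (GRCm38) by identifier. The test plan had assumed whole counts, so the estimated counts were rounded. One edgeR 4.0.16 quasi-likelihood fit (R 4.3.3) over all 15 libraries with group as its term, TMM scaling and filterByExpr tested 18651 genes, with Benjamini-Hochberg adjustment over all of them and a threshold of 0.05. SE is the log2 fold change divided by the root of F. Alternatives were DESeq2 1.42.0, limma-voom (limma 3.58.1), other scalings, no filter, 2 groups only, GC and length offsets, a replicate block and leaving out libraries. Code was tested on simulated counts. The totals, 16.26 M to 20.39 M counts in vehicle and 18.99 M to 28.78 M in treated libraries, leave members under 1 CPM with few counts. A gene named with values outside the 39 members was among the 2 of its list with the smallest adjusted p in a comparison, apart from slow fibre, heart and satellite cell genes, Gabarapl1 and Malat1, which were chosen after their values were seen. Fold changes, SEs and adjusted p-values are given for 12 set members and for up to 2 further called members per role; Actn2 and Myot in the vehicle fit were chosen after their values were seen. The members and lists were chosen with earlier results of these data known. One result is not reported here. The 39 members, over the 6 roles, were described by counts and medians, without a test of the list.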

Additional observations from a re-analysis of the deposited data

Results flagged for a closer look

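Levels of members and of related slow fibre and heart genes were examined for single libraries far from the others in groups of 4, where chance alone would mark about 1 in 20 of the 147 groups looked at, and 5 were marked. Myh7 stood at 3.12 CPM in syngeneic library 1, against 0 to 0.0458 CPM in the other 3. Tnnc1 stood at 0.734 CPM in the same library, against 0.137 to 0.176 CPM. Tnni1 stood at 46.5 CPM in Wnt-C59 library 5, against 0.615 to 0.992 CPM. Tnnt1 stood at 9.12 CPM in combination library 2, against 1.41 to 1.92 CPM. Csrp3, a Z-disc protein, stood at 3.33 CPM in Wnt-C59 library 1, against 48.8 to 77.3 CPM.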

How the results depend on the processing

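In the fits without a muscle covariate, Des was called higher in allogeneic than in syngeneic skin under each alternative tried. In those fits Jph1 was likewise called lower under the combination than in allogeneic skin. Relative to other sarcomere genes, Des was not called with the vehicle libraries alone. In the fit of all groups 29.8% of all genes passed for allogeneic against syngeneic skin, and 22.2% relative to other sarcomere genes. The share was 50.8% for Wnt-C59 and 54.5% for the combination against allogeneic, and 0.231% between both treatments. Against syngeneic skin it was 53.1% for Wnt-C59 and 54.1% for the combination. Counts below from a fit whose share of all genes is not given in this text lack a background. The number of members called moved with the fit. For allogeneic against syngeneic skin it was 1 without scaling, with limma-voom and without a filter, 6 with DESeq2, 21 with 2 groups alone and 10 without both libraries numbered 5 (a setting added, like the joint GC and length correction, after the data were seen), and 1 to 2 with a library left out. Relative to other sarcomere genes it was 4 with energy enzymes as the covariate, 3 with 2 groups alone and 8 to 19 with a library left out. For Wnt-C59 against allogeneic it was 0 with DESeq2, limma-voom, no filter or no libraries numbered 5, 4 with 2 groups alone and 0 to 1 with a library left out. For the combination against allogeneic it was 12 with limma-voom, 2 with 2 groups alone or GC and length trends removed, and 2 to 11 with a library left out. For the combination against Wnt-C59 it was 1 with DESeq2, and 0 with any library left out, also relative to other sarcomere genes. For Wnt-C59 against syngeneic it was 2 without scaling, 13 with DESeq2, 1 with limma-voom, no filter or the GC trend removed, 29 with 2 groups alone, 23 without libraries numbered 5 and 1 to 4 with a library left out. For the combination against syngeneic it was 2 with DESeq2 size factors, no scaling, DESeq2 or limma-voom, 0 with no filter, 2 groups alone or either trend correction, 7 without libraries numbered 5 and 0 to 7 with a library left out. The Myh2 share differed by 0.696 to 1.91 points (allogeneic minus syngeneic), -3.84 to 0.777 (Wnt-C59 minus allogeneic), -1.91 to 0.264 (combination minus allogeneic), -1.9 to 2.71 (combination minus Wnt-C59), -2.53 to 2.09 and -0.599 to 1.58 (each treatment minus syngeneic) with a library left out. The cause of these moves was not tested, beyond the smaller sets of libraries and genes that some settings use.

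No log2 fold change passed the test where its sign differed. For Wnt-C59 against allogeneic, Myh1 gave -0.0023 with DESeq2 size factors and DESeq2, -0.22 with the GC trend removed, -0.18 without libraries numbered 5 and -0.33 to 0.55 with a library left out. Des gave 0.00097 and Mb -0.48 without libraries numbered 5, with -0.42 to 0.50 and -0.46 to 1.16 when a library was left out, and Mb gave -0.32 and -0.39 with the GC trend and with GC and length trends removed. Fbxo32 gave 0.12 with both trends removed, and Myh4 -0.65 to 0.13 with a library left out. For the combination against allogeneic, Ckm gave -0.02 without scaling, -1.78 with limma-voom, -0.40 and -0.56 with the trends removed, and -1.06 to 1.12 with a library left out. Acta1 gave -2.30, -0.56 and -0.77 under the last 3 of these settings and -1.15 to 1.00 with a library left out, and Atp2a1 -1.95 to 0.03.

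The vehicle groups share the replicate numbers 1 to 3. Deviations from the group mean had correlations of -0.065, -0.091 and -0.03 between same-numbered libraries. With 3 pairs, and deviations tied together by their group mean, this check cannot tell whether same-numbered libraries were paired. With the replicate number as a block, 10 members passed, Trim63 and Des among them and Fbxo32 not (adjusted p 0.13). With the block and the GC trend together it was 11. Neither of these block counts has a share of all genes beside it, so they lack a background. Without a block, 3 members passed in the fit of all groups and 21 with the vehicle libraries fitted alone. The effect of the block was not separated from that of the libraries fitted.

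Depth limits the low members: combination library 5 holds 4428 counts over all 39 genes, and Trdn and Ckmt2 had none there.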
